A study of Nilaparvata lugens with 9 samples.

Results

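The miR-193 and miR-2788 hairpins of the brown planthopper, *Nilaparvata lugens*, lie close together in the genome, and their main products had opposite patterns in short-winged female adults between 1 d and 5 d after emergence. MiR-193-3p had a mean of 1045 CPM (reads scaled to the depth of the library) at 1 d and 421 CPM at 5 d, whereas miR-2788-3p rose from 116 to 404 CPM. As a result, miR-2788-3p made up 10.2% ± 2.10 of the reads of both at 1 d, 27.9% ± 6.53 at 3 d and 49.2% ± 12.4 at 5 d (SD, n = 3 libraries each). The opposite arm of the miR-193 hairpin, PC-5p-24585_327, was lower at 5 d than at 1 d like miR-193-3p.

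Small RNA was sequenced from untreated whole-body short-winged (SW) females at 1, 3 and 5 days after emergence (1 d, 3 d and 5 d), with 3 libraries per phase and 9 in all. As labelled, the phases differ only in the age of the adults. Each sample was pooled RNA of many insects, so a level is an average over all tissues. It is not known if libraries of the same phase were made from different pools, so the spread between them may be technical. The members were chosen by name, as every sequence named miR-193 or miR-2788, together with PC-5p-24585_327. This gave 5 of the 759 distinct mature sequences in the table, and 4 of the 5 passed the filter on low counts. The group was selected on its behaviour across the phases in these libraries, so the levels and fold changes of its members are a description and carry no test. The name PC stands for a predicted candidate without a match in miRBase.

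A miRNA is cut from a hairpin whose stem holds a sequence on each side, the 5p arm and the 3p arm. Usually the strand of 1 arm is loaded into an Argonaute protein and guides it to target mRNAs, mainly through bases 2 to 8, the seed, while the opposite strand is mostly degraded. Enzymes can add bases to the 3′ end that are not encoded in the hairpin, often A or U. MiR-193 is shared by many animals, and in butterflies miR-193 and miR-2788 come from the same long non-coding RNA locus, where miR-193 acts in the dark colour of wing scales. These data hold no test of what either miRNA does in *N. lugens*.

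The sequences show which entries belong together. The 4 members named miR-193 or miR-2788 are given first, then PC-5p-24585_327, from 5′ to 3′ with the seed in capitals.
dme-miR-193-3p_2ss10AG22CG: uACUGGCCugcuaagucccaag
dpu-miR-193_R+2_1ss22AG: uACUGGCCugcuaagucccaagaa
tca-miR-2788-3p_R+3_1ss11GA: cAAUGCCCuuagaaaucccaaa
ame-miR-2788-3p_R+2_1ss11CA: cAAUGCCCuuagaaaucccaaaaa
PC-5p-24585_327: cGGGACUUggugguauaguugg
The prefixes name the species of the nearest miRBase entry, *Drosophila melanogaster* (dme), *Daphnia pulex* (dpu), *Tribolium castaneum* (tca) and the honey bee *Apis mellifera* (ame). The 5 entries therefore hold only 3 arms. The dpu-miR-193 entry is the dme-miR-193-3p entry with AA added at its 3′ end, and the ame-miR-2788-3p entry is the tca-miR-2788-3p entry with AA added. Counted from the 5′ end, with the base of the miRBase sequence first, miR-193-3p differed from dme-miR-193-3p by A10G and C22G and from dpu-miR-193 by A22G. MiR-2788-3p differed from tca-miR-2788-3p by G11A and from ame-miR-2788-3p by C11A. None of these substitutions was in a seed.

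The 2 leading sequences resembled each other. MiR-193-3p and miR-2788-3p had the same base at 14 of 22 positions, the highest number between miR-193-3p and any of the 188 other sequences of 22 nt, for which the next highest was 12 and the median 6. They shared 5 of the 7 seed positions, so the seeds ACUGGCC and AAUGCCC differ. No other sequence in the table had the seed of miR-193-3p or that of PC-5p-24585_327. The seed of miR-2788-3p was found in 1 further entry, PC-3p-124724_53, which comes from the miR-2788 hairpin itself.

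The hairpins are printed with both mature arms in capitals, to show where each member sits.
miR-193 precursor: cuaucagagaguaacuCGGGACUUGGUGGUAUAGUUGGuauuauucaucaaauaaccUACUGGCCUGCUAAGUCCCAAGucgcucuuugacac
miR-2788 precursor: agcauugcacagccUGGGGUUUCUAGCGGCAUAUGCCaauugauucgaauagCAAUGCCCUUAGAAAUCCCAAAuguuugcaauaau
PC-5p-24585_327 occupied positions 17 to 38 and miR-193-3p positions 58 to 79 of the same precursor. It is therefore the 5p arm of the miR-193 hairpin and not a separate hairpin beside it, although the table gives it a name of its own. The miR-2788 precursor held 2 entries outside the group, both listed within 10 kb of the members. PC-5p-149551_42 is its 5p arm at positions 15 to 37, and PC-3p-124724_53 is miR-2788-3p with 1 further U that the precursor encodes. Their sequences follow, again with the seed in capitals.
PC-5p-149551_42: uGGGGUUUcuagcggcauaugcc
PC-3p-124724_53: cAAUGCCCuuagaaaucccaaau
The AA of both tailed forms is not in these precursors, where UC follows miR-193-3p and UG follows miR-2788-3p. The authors' folding gave a free energy of -42.9 kcal/mol for the miR-193 hairpin of 87 nt and -31 kcal/mol for the miR-2788 hairpin of 81 nt. The folds had 14 base pairs between the arms of miR-193 and 18 between those of miR-2788.

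Both hairpins were listed on the minus strand of scaffold NW_019105609.1, in a genome build that the sources used here do not name. MiR-193-3p was listed at 631722 and miR-2788-3p at 623249, a distance of 8473 bases, so miR-193 lies upstream of miR-2788 in the direction of transcription. The tailed forms were listed without a position in this genome. The only other entry on the scaffold was PC-5p-127906_52, on the plus strand at 937068. No gene annotation of this build was used, so the hairpins are not assigned to an exon or intron here.

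MiR-193-3p was the 69th most abundant sequence by mean CPM and miR-2788-3p the 97th. The libraries held between 972506 and 3184052 reads on the listed miRNAs, with the fewest in 1 d replicate 2, and CPM were scaled by TMM factors. Markers of muscle and nerve were present in all 9 libraries of these whole bodies. MiR-1-3p, known from muscle, was at 42420 to 61905 CPM, miR-133-3p, also from muscle, at 1892 to 4009 CPM, and miR-124, known from neurons, at 402 to 1721 CPM. Their log2 fold changes between 5 d and 1 d were -0.22, 0.08 and 0.56, and none was called. In whole bodies, fewer cells of a type and less of a miRNA per cell cannot be told apart.

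MiR-193-3p was highest at 1 d. It measured 927, 1307 and 901 CPM in the 3 libraries at 1 d, 715, 401 and 427 CPM at 3 d, and 436, 525 and 301 CPM at 5 d. Every 1 d library was above every later library, while the 3 d and 5 d libraries overlapped. Of the 341 sequences that passed the filter, 26 (7.62%) had every 1 d library above every 5 d library. The log2 fold change of CPM was -1.02 (SE 0.34) at 3 d vs. 1 d and -1.31 (SE 0.34) at 5 d vs. 1 d, a 2.48-fold lower level. From 3 d to 5 d the value was -0.29 (SE 0.33), smaller than its error, so these neighbours in the order of levels did not differ beyond their spread. Without 3 d replicate 1, the library with the highest level at 3 d, this last value was 0.0035.

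MiR-2788-3p had the opposite order. It measured 104, 117 and 127 CPM at 1 d, 183, 190 and 194 CPM at 3 d, and 464, 293 and 455 CPM at 5 d. The 3 phases did not overlap at any step, and the spread was widest at 5 d, where replicate 2 stood lowest. The log2 fold change was 0.70 (SE 0.29) at 3 d vs. 1 d, 1.09 (SE 0.29) at 5 d vs. 3 d and 1.80 (SE 0.29) at 5 d vs. 1 d, a 3.48-fold higher level.

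PC-5p-24585_327, the 5p arm of miR-193, had fewer reads than its partner in every library. It measured 102, 117 and 99.3 CPM at 1 d, 46.2, 35.7 and 59.1 CPM at 3 d, and 24.1, 38.0 and 23.5 CPM at 5 d. The 1 d libraries lay above all others, and 1 library of 5 d exceeded the lowest of 3 d. The log2 fold change was -1.17 (SE 0.37) at 3 d vs. 1 d and -1.89 (SE 0.37) at 5 d vs. 1 d, a 3.71-fold lower level. From 3 d to 5 d it was -0.72 (SE 0.37).

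**Figure D1:**
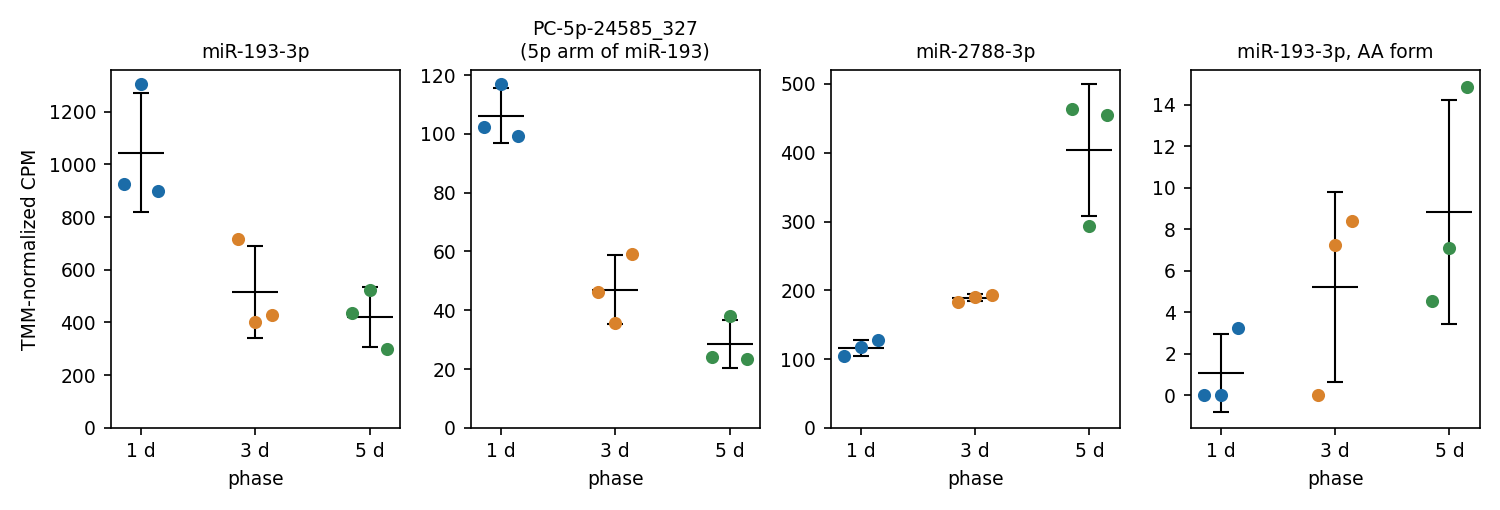
TMM-normalized CPM (vertical axes from 0, or from below 0 where a bar reaches there, a scale for each panel) of the 4 members that passed the filter, by phase; points are single libraries, and bars show the mean and SD of 3 libraries. MiR-193-3p and PC-5p-24585_327 are highest in the 1 d libraries, and miR-2788-3p is highest in the 5 d libraries.

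Across all sequences, few passed the test used for the whole table (edgeR quasi-likelihood test, Benjamini-Hochberg adjusted p below 0.05). At 5 d vs. 1 d, 5 of 341 tested sequences (1.47%) were called, and miR-2788-3p and PC-5p-24585_327 were 2 of these 5, whereas miR-193-3p was not. Since the group was selected on this contrast, nothing is read from that count. At 3 d vs. 1 d and at 5 d vs. 3 d, 0 of 341 (0%) were called by edgeR, with 29 and 8 at an unadjusted p below 0.05. DESeq2 called 6 and 2 sequences in these comparisons. At 5 d vs. 1 d, DESeq2 called 13 sequences, miR-193-3p among them, and nothing is read from that call either. Calls at 5 d vs. 1 d were compared in 8 alternatives that leave out no single library, with the fit of summed isoforms not counted. PC-5p-24585_327 was called in 2 of them, DESeq2 and edgeR with the size factors of DESeq2. It lost its call in the others of the 8, the replicate block included. MiR-2788-3p was called in 7 of the 8 and lost its call when only the 6 libraries of 1 d and 5 d were fitted. The call of PC-5p-24585_327 was also lost whichever library was left out, and the call of miR-2788-3p held in 3 of the 9 fits with a library left out, those without 3 d replicate 1, 3 d replicate 3 or 5 d replicate 2. Its log2 fold change in all 9 fits was between 1.61 and 1.94. These refits reuse the contrast on which the members were selected, so calls held or lost describe the fits and do not test the members. Every 1 d library was above every 5 d library for 26 of 341 sequences (7.62%), and the reverse held for 36 (10.6%). How many of the 26 also had every 1 d library above every 3 d library, like miR-193-3p and PC-5p-24585_327, was not counted. Levels that were higher at each later phase without overlap were seen for 5 of 341 sequences (1.47%), among them miR-2788-3p, miR-34-5p and miR-317-3p.

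The ratio of the neighbours within a library does not depend on how libraries are scaled to each other. MiR-2788-3p made up 10.1%, 8.20% and 12.4% of the reads of both miRNAs in the 1 d libraries. The values were 20.4%, 32.2% and 31.2% at 3 d, and 51.5%, 35.8% and 60.2% at 5 d. The phases did not overlap, and miR-2788-3p exceeded miR-193-3p in 2 libraries, both at 5 d. These shares rest on 1144 to 2738 reads per library, and the widest of their 95% Wilson intervals was 57.4% to 62.9%, in 5 d replicate 3, narrower than the spread between the libraries of that phase. The Wilson intervals cover counting error only and not the spread between libraries. The reads carry no molecular identifiers, so copies made by PCR can leave these intervals too narrow.

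**Figure D2:**
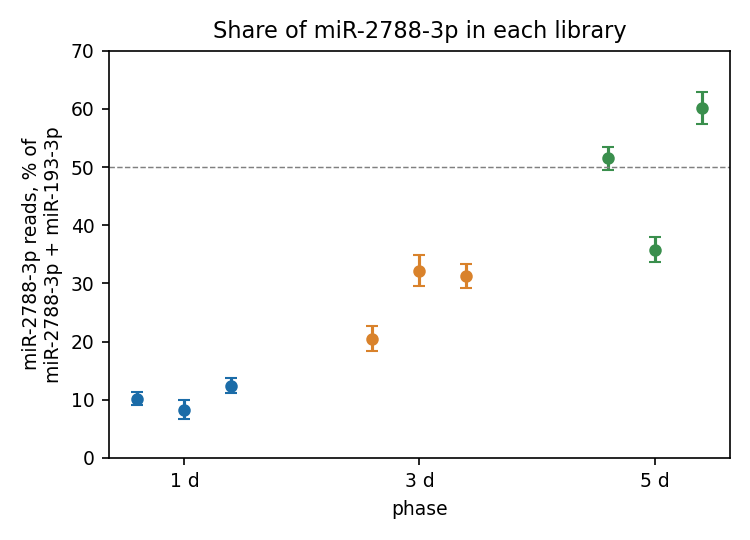
Share of miR-2788-3p in the reads of miR-2788-3p and miR-193-3p together (vertical axis, %) in each of the 9 libraries, by phase; bars are 95% Wilson intervals for counting error, and the dashed line marks equal reads of both. The shares lie between 8.20% and 12.4% at 1 d and between 35.8% and 60.2% at 5 d.

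On a log2 scale the ratio of miR-2788-3p to miR-193-3p was -3.15 ± 0.33 at 1 d, -1.39 ± 0.50 at 3 d and -0.05 ± 0.73 at 5 d (SD, n = 3). The change from 1 d to 5 d was 3.10, and it stayed between 2.78 and 3.50 when each library was left out in turn. The summed level of both miRNAs was 1161 ± 228 CPM at 1 d, 703 ± 170 CPM at 3 d and 824 ± 71.8 CPM at 5 d. At 3 d and 5 d the sums of the libraries were thus lower on average than at 1 d, while the ratio moved in favour of miR-2788-3p at each phase.

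All neighbouring hairpins in the table, this pair included, give the setting for this difference. Of all hairpins listed on the same scaffold with starts within 10 kb, 55 pairs had both leading sequences tested. Some pairs share a hairpin, and some lie on opposite strands. The 5 d vs. 1 d changes had opposite signs in 9 of the 55 pairs (16.4%), the selected pair among them. The median absolute difference between neighbours was 0.35 on the log2 scale. For miR-193 and miR-2788 the difference was 3.11 in the fitted fold changes. Since these neighbours were selected on their opposite directions in this contrast, their place among the pairs is a description and nothing is read from it. The largest difference among the other pairs was 2.23, between PC-3p-77335_97 and PC-3p-9407_736. Within 50 kb, 17 of 91 pairs had opposite signs, again with the selected pair among them.

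**Figure D3:**
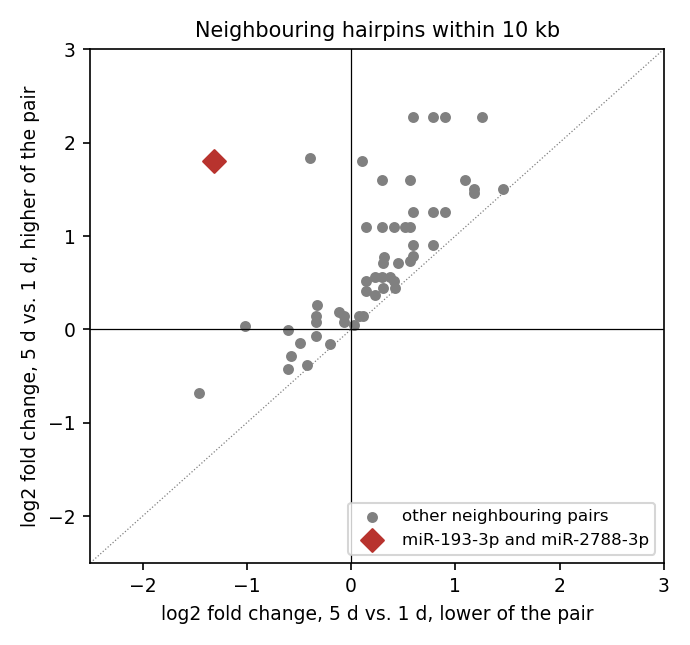
Log2 fold change at 5 d vs. 1 d of the lower (horizontal axis) and the higher (vertical axis) member of each of the 55 pairs of neighbouring hairpins within 10 kb; points on the diagonal have equal changes. The pair of miR-193-3p and miR-2788-3p (diamond, -1.31 and 1.80) lies off the diagonal, as it was selected to.

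The arms of the miR-193 hairpin went the same way, and the share of the 5p arm was slightly lower at 5 d than at 1 d. PC-5p-24585_327 held 9.95%, 8.20% and 9.93% of the reads of both arms at 1 d, 6.06%, 8.17% and 12.2% at 3 d, and 5.24%, 6.76% and 7.25% at 5 d. Every 1 d library was above every 5 d library, while the 3 d libraries overlapped both. The Wilson intervals of 1 d replicate 2 (6.76% to 9.93%) and 5 d replicate 3 (5.33% to 9.80%) overlapped. Both arms were selected on their behaviour across the phases, so nothing is read from this order. The minor arm had a higher share in every 1 d than in every 5 d library for 4 of the 39 hairpins with both arms tested (10.3%), namely miR-193, miR-278, miR-133 and miR-34. Both arms had the same sign of change at 5 d vs. 1 d in 30 of these 39 pairs of arms, some of which share an arm.

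The 5p arm of miR-2788 had too few reads to give it a direction. The 3p arm had 276, 95 and 317 reads at 1 d and 1230, 701 and 735 reads at 5 d. The 5p arm, PC-5p-149551_42, had 23, 0 and 34 reads at 1 d, 0, 0 and 14 at 3 d, and 15, 0 and 0 at 5 d. This passenger arm was listed at 0 in 5 of the 9 libraries, too few reads to tell if it rose like miR-2788-3p. Its summed reads were 57 of 745 reads of both arms at 1 d (7.65%). They were 14 of 1309 at 3 d (1.07%) and 15 of 2681 at 5 d (0.559%). Most of these totals are reads of the 3p arm, which was selected on its behaviour across the phases, so the lower share follows in part from that selection. The table holds no value of 1 or 2 reads, and a value of 0 can stand for up to 4 reads. With 4 reads in place of each 0, the 5p arm was at most 4.04% of both arms in 1 d replicate 2 and at most 0.567% and 0.541% in the 2 libraries of 5 d listed at 0. The 5 d libraries then remained below 1 d replicates 1 and 3, which were at 7.69% and 9.69%, and 1 d replicate 2 cannot be placed. In log2 fold change of CPM, PC-5p-149551_42 was at -1.94 (SE 2.01) at 5 d vs. 1 d, an error as large as the value.

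The tailed forms were rare. The AA form of miR-193-3p had 0, 0 and 8 reads at 1 d, 0, 14 and 28 at 3 d, and 12, 17 and 24 at 5 d, against 2462, 1063 and 2241, then 1100, 776 and 1421, then 1157, 1256 and 486 reads of the untailed form. The tailed reads were thus more numerous at 5 d, where the untailed reads were fewer on average. Their share of both was 0.356% in 1 d replicate 3 and 1.03%, 1.34% and 4.71% at 5 d. The 2 libraries of 1 d listed at 0 can hold at most 0.162% and 0.375%, so every 5 d library was above every 1 d library also with hidden reads. The 3 d libraries were at 0, 1.77% and 1.93%, and the 0 allows up to 0.362%. The log2 fold change of its CPM was 2.82 (SE 1.66) at 5 d vs. 1 d, with few reads behind it. Its higher reads in the later phases carried this form past the filter on low counts. The filter thus favours a rise, and nothing is read from this value. All its 1 d reads were in replicate 3. Without that library the fitted value was 7.25, which is set against libraries listed at 0 and is no bound on the change.

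A share of AA forms could be computed for 8 sequences whose precursor does not encode the added bases. The mean share was higher at 5 d than at 1 d for 5 of the 8. For miR-193-3p alone, every 5 d library was above every 1 d library once hidden reads were allowed for. The untailed miR-193-3p, which enters this share, was selected on its behaviour across the phases, so nothing is read from its place among the 8. The AA form of miR-2788-3p had 5 reads in 3 d replicate 2, 10 reads in 5 d replicate 3 and 0 in the other 7 libraries, so no order of phases can be read from it. PC-3p-124724_53, with the encoded U, had 13, 0 and 15 reads at 1 d, 0, 9 and 13 at 3 d, and 18, 7 and 25 at 5 d. It had up to 15 reads in a 1 d library and up to 25 in a 5 d library, and its log2 fold change of CPM was 1.11 (SE 1.38) at 5 d vs. 1 d.

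**Figure D4:**
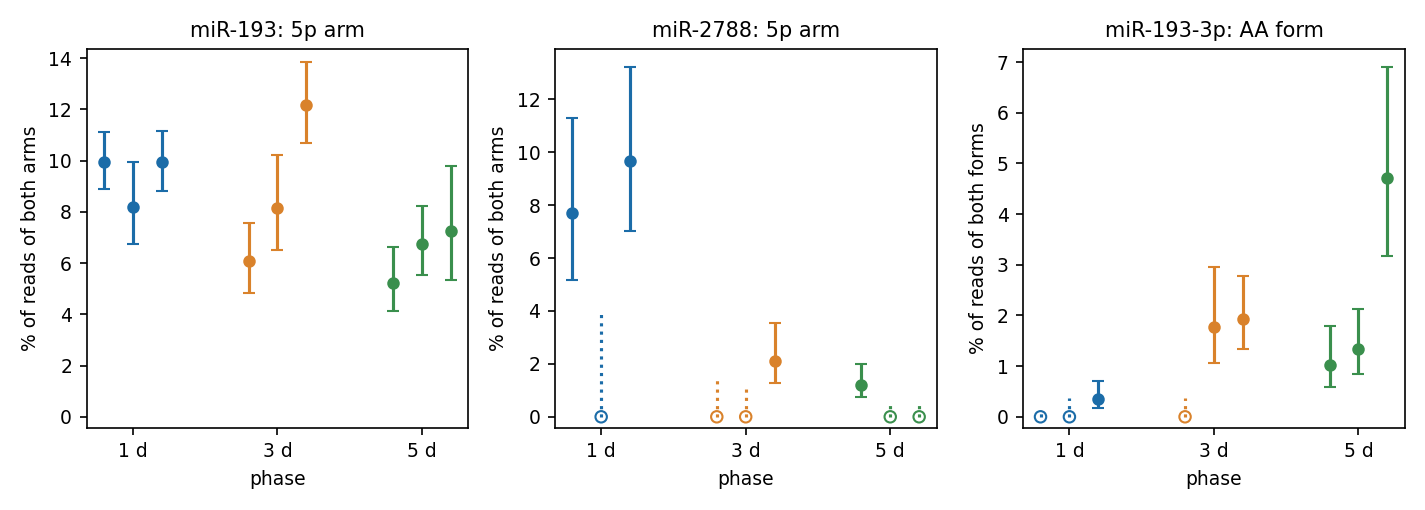
Shares in each library, by phase, of PC-5p-24585_327 in the reads of both miR-193 arms, of PC-5p-149551_42 in the reads of both miR-2788 arms, and of the AA form in all reads of miR-193-3p (vertical axes, %); bars are 95% Wilson intervals. Open circles are libraries listed at 0, and their dotted lines reach the share that 4 hidden reads would give.

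The patterns most like the members were found by Pearson's r of log2 CPM over the 9 libraries, a description over points that share their libraries. MiR-193-3p was closest to miR-276b-3p (r = 0.917), miR-279b-3p (0.863) and dqu-mir-3759-p3_1ss13CT (0.848). PC-5p-24585_327 was closest to miR-9a-5p (0.941), followed by the same miR-276b-3p (0.817) and miR-279b-3p (0.769). MiR-2788-3p was closest to miR-34-5p (0.911), miR-317-3p (0.907) and PC-5p-41317_196 (0.853). In *Drosophila*, miR-317 and miR-34 are themselves neighbours from 1 locus. In *N. lugens*, miR-277-3p was listed 7505 bases from miR-34-5p. Its log2 fold change at 5 d vs. 1 d was 0.10, against 1.80 for miR-34-5p. Both arms of miR-193 shared 2 of their 3 closest patterns with each other. These 2 sequences had log2 fold changes of only -0.46 and -0.47 at 5 d vs. 1 d. The unshared ones were lower, with -1.49 for miR-9a-5p and -1.81 for dqu-mir-3759-p3_1ss13CT. No closest pattern of a miR-193 arm was shared with miR-2788-3p. The group was selected on opposite directions in these libraries, so nothing is read from that.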

How the data were processed

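Reads were cleaned by the authors in ACGT101-miR, filtered for mRNA, Rfam and repeat sequences, and matched to miRBase 22.0 and a genome of *N. lugens*. The raw columns hold estimated counts as deposited, some of them divided among entries. The deposited normalized signal is these counts times 1 factor per library. The authors' free energies, lengths and positions were used as deposited. The sample labels describe an mRNA protocol, whereas the methods describe small RNA from a gel.

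Entries that share a mature sequence were merged. Counts were rounded and fitted with edgeR 4.0.16 (quasi-likelihood F-test, TMM, default filter by phase) in R 4.3.3, with phase as the only term. SE is the absolute log2 fold change over the square root of F. Other steps used scipy 1.17.1, numpy 2.4.6 and pandas 2.3.3 in Python 3.11.15. CPM plus 1 was used for Pearson's r. Library depth was 972506 to 3184052 reads.

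All members, lists and tests were chosen with earlier results of these data known. Named sequences are the members, entries within 10 kb of them, and the 3 most similar to each leading member, with miR-277-3p as a neighbour of miR-34-5p. The arm pairs, the AA forms, the sequences with the next largest difference and the use of 4 reads in place of 0 were added once values had been seen. The ovary marker miR-989-3p was not analysed here. Alternatives were DESeq2 1.42.0, limma 3.58.1, other scalings and filters, 6 libraries only, isoforms summed, a replicate block and each library left out. On simulated data for 5 d vs. 1 d with 759 sequences, edgeR called 47 of 85 tested sequences changed by a log2 value of 2 and 4 of 221 unchanged.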

Additional observations from a re-analysis of the deposited data

How the results depend on the processing

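The directions of the 3 leading members at 5 d vs. 1 d held under all alternatives run. The log2 fold change ranged from -1.57 to -1.10 for miR-193-3p, from 1.61 to 1.99 for miR-2788-3p and from -2.20 to -1.69 for PC-5p-24585_327. The sequences called at 5 d vs. 1 d numbered 26 without the filter, 13 with DESeq2, 3 with limma, 1 with the 6 libraries only and 0 to 4 with each library left out. At 3 d vs. 1 d they numbered 19 without the filter, 6 with DESeq2, 1 with limma, 1 with library totals and 0 to 2 with each library left out. At 5 d vs. 3 d they numbered 2 without the filter, 2 with DESeq2 and 0 with each library left out. Opposite signs were found in 2 of 8 neighbouring pairs within 1 kb and in 17 of 91 within 50 kb, the latter with the selected pair included. MiR-193-3p at 5 d vs. 3 d went from -0.29 to 0.0035 without 3 d replicate 1, and ranged from -0.48 to 0.0035 over the libraries left out. The cause of these changes was not tested, beyond the number of sequences or libraries used.

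With the replicate number as a block, 0, 4 and 0 sequences were called in the comparisons of 3 d with 1 d, 5 d with 1 d and 5 d with 3 d, and the call of PC-5p-24585_327 was lost while that of miR-2788-3p held. For libraries with the same number, r of their deviations from the phase means was between -0.35 and 0.40 (median 0.12). For libraries with different numbers it was between -0.50 and 0.48 (median -0.02). So few libraries cannot decide if the numbers pair them. Scaling by library totals moved the median log2 fold change of all sequences by 0.25 at 3 d vs. 1 d and 0.18 at 5 d vs. 1 d, and the authors' factors moved it by 0.11 at 5 d vs. 1 d and 0.14 at 5 d vs. 3 d. Unsplit counts in the table start at 5 reads, which limits the passenger arm of miR-2788 and the tailed forms.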
